A study of Mus musculus with 6 samples.

Results

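The cells described here are smooth muscle cells (SMCs) of the traced lineage from the aortic root of 2 groups of Marfan mice, one labelled as carrying floxed Klf4 and one with the wild-type Klf4 allele. A barcode was taken as a cell when it held at least 4000 unique molecular identifiers (UMIs, each standing for 1 captured RNA molecule) from at least 500 genes, at most 10% mitochondrial UMIs and at least 1 UMI of Myh11, the smooth muscle myosin heavy chain. Each cell was then thinned at random to 4000 UMIs, so that both libraries were read at 1 depth. These limits kept 5870 cells of the library labelled Klf4-floxed and 4523 of the Marfan library, together 10393 of the 60200 barcodes of the whole series.

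Both groups were male mice aged 24 weeks that carried the C1041G allele of Fbn1, the gene of the microfibril protein fibrillin-1, on 1 chromosome. The Klf4 genotype was given as floxed in one and as control in the other, and the design text calls the deletion induced. The driver of the recombinase, the inducing agent and its timing were not stated in the labels. Littermate control mice with neither change were also collected, and every group also had a lineage-negative library from the same sort. Tissue of 4 animals per group was combined before capture. It was digested with Liberase plus elastase, and cells with and without the tdTomato lineage reporter were sorted apart. Each group was therefore 1 library. No difference below has a replicate check, and none was tested. The brackets are 95% intervals that cover counting error only, and every ratio compares libraries, not conditions.

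Klf4 is a zinc-finger transcription factor of the Kruppel-like family. In cultured and injured arteries it is known for repressing contractile genes of SMCs and for its part in phenotypic modulation, in which SMCs lose contractile proteins and take up the expression of matrix, inflammatory or cartilage-like genes. In Marfan syndrome weak fibrillin microfibrils leave the elastic wall of the aortic root prone to dilation, and modulated SMCs have been described in such aneurysms.

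In the library labelled Klf4-floxed 65.6% of deposited barcodes passed the limits, with a median of 13412 UMIs before thinning. In the Marfan library 19.7% of 22905 barcodes passed, with a median of 12611 UMIs. The median over all its barcodes was 1225 UMIs, and those left out were not analysed here. Myh11 removed 152 and 113 cells that met the other limits. Of the barcode sequences, 60 occurred in both libraries, 8 of them among the cells kept. Myh11 was at 2052 and 2217 CPM (a gene's UMIs scaled to a common library total) and Acta2, smooth muscle actin, had a UMI in 99.97% and 99.91% of cells, and the latter played no part in the choice of cells. TDT, the transcript of the lineage reporter, was detected in 56.5% of cells of the library labelled Klf4-floxed and in 75.9% of Marfan cells, at 236 and 438 CPM. The control library stood between, at 349 CPM. The reporter level thus differed between the libraries, and its part in the results below was not tested. With only the cells that held a TDT UMI, 4 of the 34 called genes taken by the naming rule were under 1.5-fold beside TDT itself, namely Cxcl1 (log2 ratio -0.42), Cxcl2 (-0.57), Osmr (-0.56) and Gpm6a (0.49).

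Klf4 itself was higher, not lower, in the library labelled Klf4-floxed. It stood at 109 CPM there, at 46.1 CPM in Marfan and at 28.5 CPM in the control SMC library. The 3 levels did not overlap in their counting intervals, and the log2 ratio of the library labelled Klf4-floxed over Marfan was 1.24 [1.12, 1.35]. Lineage-negative cells held more Klf4 in every group, at 347 CPM for the Klf4-floxed label, 279 CPM for Marfan and 273 CPM for control, and their ratio was smaller, with a log2 value of 0.31. Klf4 (ENSMUSG00000003032.8) is a gene of 5 exons on the minus strand of chromosome 4, at chr4:55527143-55532466 of mm10. The assay counts 3' ends and the labels name no floxed exon. Counts from an end that the deletion may leave in place cannot check the genotype, and each direction below rests on the label.

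The difference in Klf4 lay in many cells rather than in a few. A Klf4 UMI was found in 26.2% [25.1, 27.3] of cells with the Klf4-floxed label, in 13% [12.03, 14.02] of Marfan cells and in 7.76% of control cells. Without thinning the first pair of shares were 51.9% and 27.2%. Cells with exactly 1 Klf4 UMI made up 17.5% and 9.79%, cells with 2 made up 5.21% and 2.10%, and cells with 3 or more made up 3.48% and 1.11%. The order was the same at each number. No cell type known to lack Klf4 was set apart, so a background share from free RNA was not measured. Among cells of 4000 up to 8000 raw UMIs Klf4 was at 112 CPM against 48.2 CPM in Marfan, among those up to 16000 at 101 against 47.8 CPM, and among the deepest at 120 against 41.3 CPM. The ratio therefore held at every raw depth. A TDT UMI was as frequent in Klf4-positive as in Klf4-negative cells of the library labelled Klf4-floxed, at 57.1% and 56.3%.

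**Figure D1:**
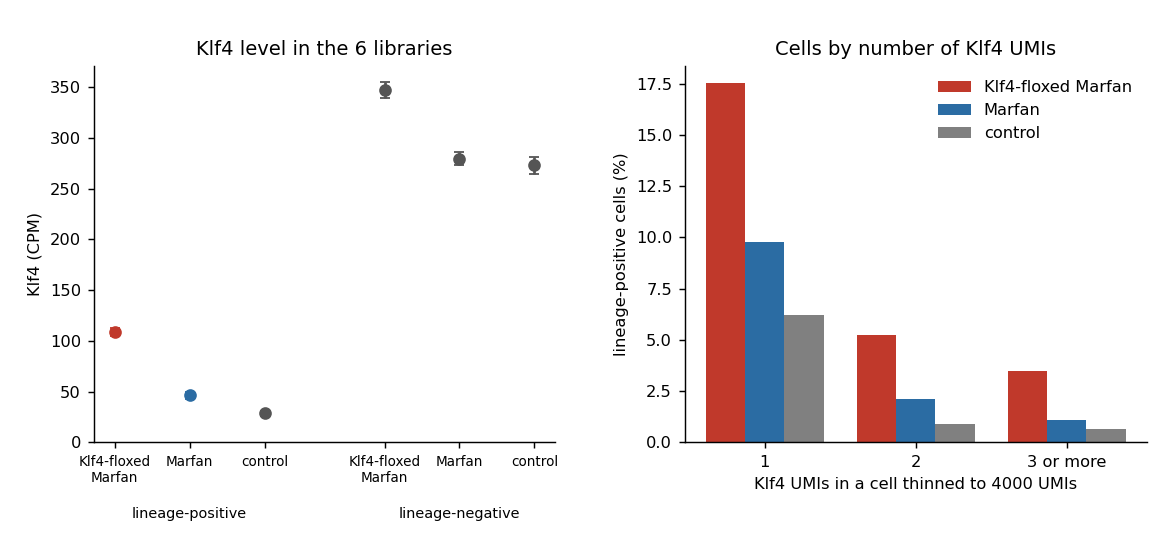
Klf4 in the 6 libraries. Left, Klf4 level in CPM with exact Poisson 95% intervals, for lineage-positive and lineage-negative libraries. Right, percent of lineage-positive cells, thinned to 4000 UMIs, that held 1, 2 or at least 3 Klf4 UMIs. The library labelled Klf4-floxed is highest in both lineage fractions and in each class of cells.

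Other measured Kruppel-like factors were under 1.5-fold. Of 12 measured members of the family, Klf4 alone was past 1.5-fold, and the median log2 ratio was 0.02. For so few genes, 0 called among the other members is near the share over all measured genes, 0.887%. Klf2, a flow-responsive member, was at 126 and 138 CPM, and Klf6 at 207 and 210 CPM. Klf5 was under the limit for measured genes, at 1.28 and 0.829 CPM. The Klf4 neighbourhood was near the shares over all genes. Of 56 other measured genes within 10 Mb of Klf4 on chromosome 4, 0 were past 1.5-fold, against 0.887% of all measured genes. Among the 56, 7.14% differed by more than 1.25-fold, against 6.21% of all measured genes.

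Most of the transcriptome was alike in the 2 libraries. Of 9240 genes with a mean of at least 5 CPM, 93.8% lay within 1.25-fold, and the median log2 ratio was -0.00. A ratio of 1.5-fold or more is called higher or lower here. By that rule 40 genes (0.433% of those measured) were higher and 42 genes (0.455%) were lower in the library labelled Klf4-floxed, 0.887% in either direction. At 2-fold the split was uneven, with 5 genes higher and 17 lower. For scale, 3.22% of measured genes were 1.5-fold higher in Marfan than in control SMCs and 2.37% lower. Many of the called genes were scarce: 56 of the 82 were under 20 CPM in the higher library, and counting error moves such ratios across the threshold. With another thinning seed, 22 of the 40 higher and 32 of the 42 lower genes were called again. Over 15 other ways of choosing or scaling cells, 8 of the higher and 17 of the lower genes passed 1.5-fold in every one. With a mean of at least 20 CPM, 6 genes were higher and 14 lower.

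**Figure D2:**
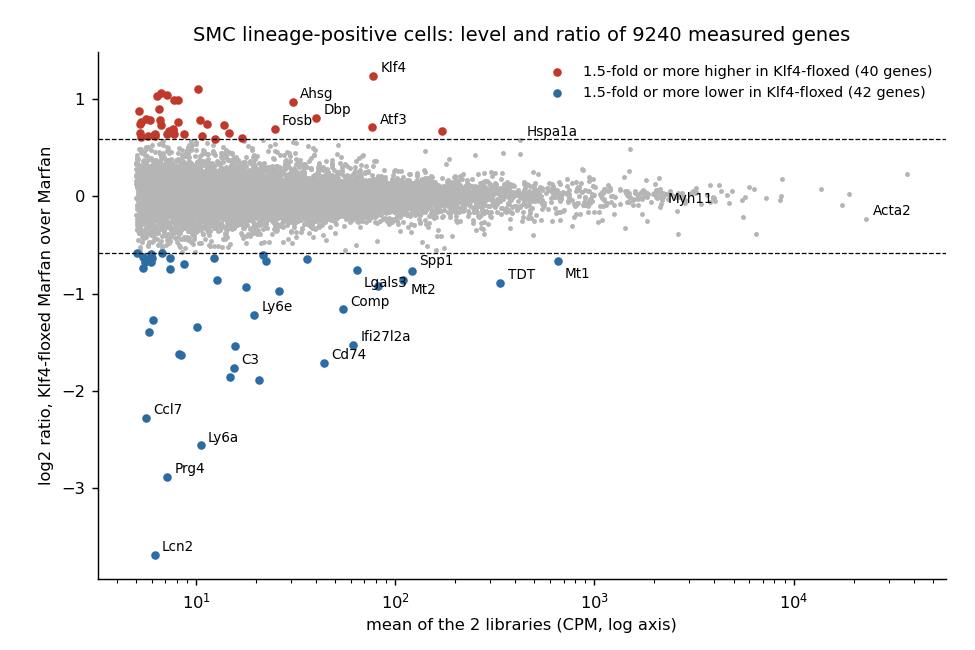
Log2 ratio of the library labelled Klf4-floxed over Marfan against mean level in CPM (log axis) for the 9240 measured genes. Dashed lines mark 1.5-fold. Klf4, Dbp and Atf3 stand out among abundant higher genes, and the lower side holds larger ratios, from Mt1 at 805 CPM in Marfan down to Lcn2 at 11.5 CPM.

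The contractile apparatus differed little. Of 24 measured genes of this list 0 were past 1.5-fold in either direction, although 21 were below 0 and the median log2 ratio was -0.10. Over all measured genes 0.887% were called and the median was -0.00. In a list this short 0 called genes is thus near the share over all genes, and the same holds for the lists below with 0 called. Acta2 stood at 21195 CPM in the library labelled Klf4-floxed, 24938 CPM in Marfan and 21876 CPM in control. The log2 ratio of the first to the second was -0.23. Tagln, which encodes the actin-binding protein transgelin, was at 17003 and 18078 CPM. Des, the intermediate filament protein desmin, had the lowest ratio of the list, with 118 CPM against 169 CPM in Marfan and 202 CPM in control (log2 ratio -0.51 [-0.59, -0.44]). None of the contractile genes was thus markedly higher under the Klf4-floxed label. The transcription factors that drive them behaved alike: 0 of 19 measured SMC identity factors were called, and Myocd, the coactivator of serum response factor, was at 71.0 and 82.0 CPM (log2 ratio -0.21).

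Extracellular matrix genes also stood near 0. Of 17 elastic fibre and microfibril genes 0 were called, with a median of 0.07. Eln, the gene of elastin, was at 999 CPM against 874 CPM in Marfan and 720 CPM in control, and Fbn1 at 144 against 129 CPM. Mfap4, a microfibril-associated glycoprotein, had the highest ratio of this list, with 400.3 CPM against 295 CPM in Marfan and 536 CPM in control (log2 ratio 0.44 [0.39, 0.49]). Among 20 collagens and their modifying proteins only Pcolce2, an enhancer of procollagen processing, was called, at 17.6 CPM against 34.6 CPM in Marfan and 57.3 CPM in control (log2 ratio -0.98 [-1.16, -0.79]). Col1a1 and Col3a1 had log2 ratios of -0.08 and -0.06. The TGF-beta signalling list held 24 measured genes with 0 called and a median of -0.00. Id1, a target of bone morphogenetic protein signals, was at 242, 316 and 387 CPM in the library labelled Klf4-floxed, in Marfan and in control.

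Genes of the modulated SMC state were lower in part. Of 15 measured members 3 were called lower and 0 higher, against 0.455% and 0.433% of all measured genes. The list's median log2 ratio was -0.28. Spp1, which encodes osteopontin, stood at 90.1 CPM against 153 CPM in Marfan and 3.13 CPM in control (log2 ratio -0.77 [-0.85, -0.69]), with a UMI in 3.48% and 5.37% of cells. Its ratio rested on few cells: it was -0.14 after removal of cells with a UMI of the valve markers Chad or Prg4, and -0.18 after removal of cells with 2 or more marker UMIs of other cell types, against -1.01 with only the cells that held a TDT UMI. Lgals3, the gene of galectin-3, was at 47.5, 80.6 and 34.4 CPM in the library labelled Klf4-floxed, Marfan and control (log2 ratio -0.76 [-0.88, -0.65]). Ly6a, which encodes the surface protein Sca1, was at 3.07, 18.1 and 4.86 CPM (log2 ratio -2.56 [-2.95, -2.19]) and was found in only 1.81% of Marfan cells. Timp1, an inhibitor of metalloproteinases, was at 143 against 208 CPM and stayed under 1.5-fold, and so did Vcam1, an adhesion molecule, at 223 against 283 CPM. The 3 most abundant members each lay within 1.25-fold: Fn1, fibronectin, was at 763 and 786 CPM against 233 CPM in control, Igfbp2 at 898 and 901 against 112 CPM, and Mgp, matrix Gla protein, at 40102 and 34183 against 14459 CPM. Both Marfan libraries thus stood well above control for these genes and close to each other.

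The share of modulated cells was similar. The UMIs of 14 list members, Mgp left out, were summed per cell, which cuts a continuous score into ranges rather than cell types. Cells with 0 to 4 such UMIs made up 36.8% [35.5, 38.0] of the library labelled Klf4-floxed and 37.2% [35.8, 38.7] of Marfan, against 76.2% in control. Cells with 15 or more made up 28.3% [27.2, 29.5] and 29.9% [28.6, 31.3], against 7.04% in control. Of all cells, 225 and 153 lay at 14 or 15 UMIs, next to the upper limit, and 747 and 547 lay at 4 or 5, next to the lower one. Klf4 was higher under the Klf4-floxed label in each range, at 87.9 against 33.6 CPM at the low end, 108 against 42.1 CPM in the middle and 137 against 66.1 CPM at the high end. With only cells of 4000 to 8000 raw UMIs the log2 ratio at the high end was 0.34 in place of 1.05, under 1.5-fold. The high range held 201 of the 208 Lcn2 UMIs of the Marfan library, at 37.1 CPM against 3.16 CPM under the Klf4-floxed label. Comp was at 200 against 77.2 CPM and Cytl1 at 314 against 159 CPM in that range. Their log2 ratios were -0.31 and -0.21 in the middle range and -0.88 and -0.54 in the low range, at levels under 15 CPM. Ifi27l2a was lower in all 3 ranges, with log2 ratios of -1.50, -0.82 and -2.03.

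**Figure D3:**
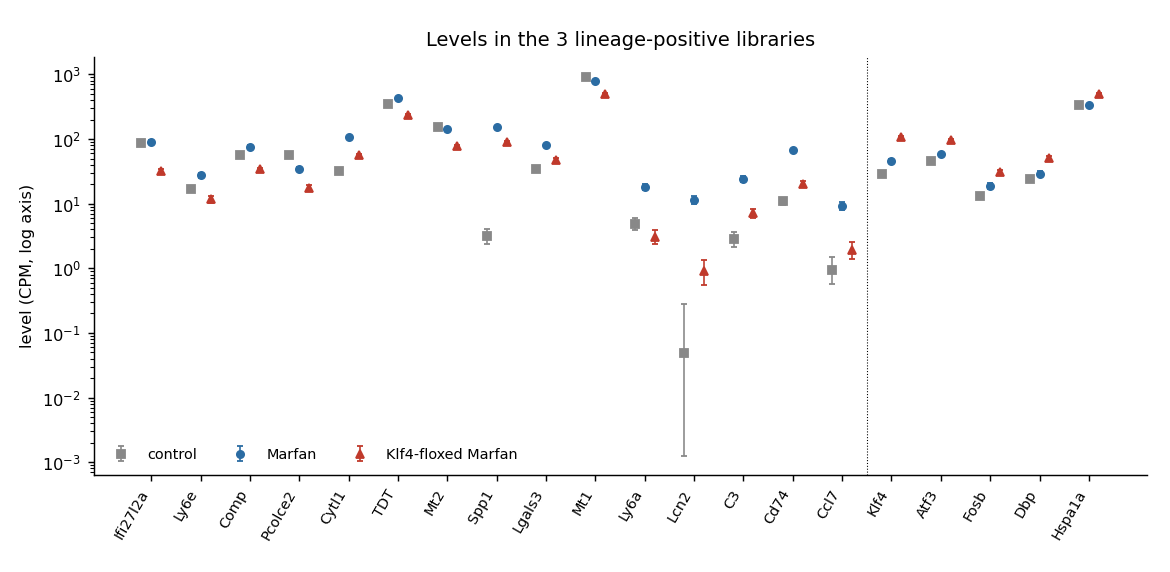
Levels in CPM (log axis) of 15 lower genes and, right of the dotted line, 5 genes with a log2 ratio of 0.58 or more in the 3 lineage-positive libraries, with exact Poisson 95% intervals. Triangles (Klf4-floxed label) lie below circles (Marfan) for the first 15 genes. For Spp1, Lcn2 and C3 the squares (control) lie lowest, and for Mt1, Mt2 and Pcolce2 they lie at or above Marfan.

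A few interferon-response genes were lower, and most of the others had small ratios below 0. Interferons act through STAT and IRF factors on genes whose promoters carry interferon-stimulated response elements. Of 23 measured members of the interferon and class I presentation list 22 had a log2 ratio below 0, against a median of -0.00 over all genes. Of the 23, 3 were called lower and 0 higher, against 0.455% and 0.433% of all measured genes. The list's median was -0.26, or -0.09 without cells that held 2 or more class II or macrophage UMIs. Ifi27l2a, an interferon-inducible gene, showed the largest difference, at 31.6 CPM in the library labelled Klf4-floxed, 91.1 CPM in Marfan and 85.6 CPM in control (log2 ratio -1.53 [-1.66, -1.40]). It was detected in 4.96%, 11% and 8.79% of cells. Irf7, a factor that amplifies the response, was at 3.58 against 8.62 CPM (log2 ratio -1.27), and Lgals3bp, a secreted glycoprotein, at 9.03 against 16.4 CPM (log2 ratio -0.86). Ly6e, an interferon-inducible surface protein, was at 11.8 against 27.4 CPM and 17.1 CPM in control (log2 ratio -1.22 [-1.44, -1.0035]). H2-K1 and H2-D1, the heavy chains of class I, had log2 ratios of -0.41 and -0.27 and B2m, their light chain, -0.18, all under 1.5-fold.

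The promoters of this list show where such an element can lie. The motif searched was GAAA, any 2 bases and GAAA, on either strand, in the window from 250 bases before to 50 after the RefSeq start (GRCm38.p6), and a match is a description, not a binding site. Of the 9240 measured genes 7445 had a promoter in the table and 3.38% of these held the motif. Of the called lower genes with a promoter 1 of 26 held the motif, or 3.85%, near the share of all measured genes. Of 20 list members with a promoter 7 held it, or 35%, and all 7 were under 1.5-fold. The next lines give the 250 bases before the start of 3 members whose log2 ratios were -0.48, -0.46 and -0.44, all below 0 and all under 1.5-fold, with the matches in capitals. They were chosen after their values were seen. Isg15 lies on the minus strand (chr4:156200819-156201068), Bst2 on the minus strand (chr8:71537473-71537722) and Ifit1 on the plus strand (chr19:34640639-34640888). In the first 2, the matches overlap and form 1 run, and in Ifit1 the 2 matches read on the opposite strand.
Isg15: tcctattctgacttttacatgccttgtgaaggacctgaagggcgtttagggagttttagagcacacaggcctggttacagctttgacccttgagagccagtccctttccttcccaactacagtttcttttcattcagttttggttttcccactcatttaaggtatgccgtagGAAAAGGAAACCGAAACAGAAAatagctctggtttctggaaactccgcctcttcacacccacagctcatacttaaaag
Bst2: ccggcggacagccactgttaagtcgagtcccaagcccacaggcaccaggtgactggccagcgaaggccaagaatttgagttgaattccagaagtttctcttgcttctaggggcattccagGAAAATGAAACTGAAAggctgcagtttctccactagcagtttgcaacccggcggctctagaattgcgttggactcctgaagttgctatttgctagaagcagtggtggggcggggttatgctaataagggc
Ifit1: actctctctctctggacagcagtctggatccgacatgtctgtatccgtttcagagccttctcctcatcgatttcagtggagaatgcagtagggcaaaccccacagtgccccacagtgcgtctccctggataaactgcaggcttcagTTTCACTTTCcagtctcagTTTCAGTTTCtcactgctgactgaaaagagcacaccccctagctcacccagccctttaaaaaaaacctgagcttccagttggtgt

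Class II genes, which present antigen and are induced by interferon gamma in many cell types, had larger ratios and lay in few cells. They are outside the rule that chose the other named genes and were picked after their values were seen. Cd74, the class II invariant chain, was at 20.5 CPM in the library labelled Klf4-floxed, 67.3 CPM in Marfan and 10.9 CPM in control (log2 ratio -1.72), and H2-Ab1 at 8.77, 32.4 and 6.35 CPM (log2 ratio -1.89). Summed over Cd74, H2-Aa, H2-Ab1 and H2-Eb1 the levels were 43.7, 146 and 26.2 CPM. Cells with 5 or more of these UMIs numbered 21 of 5870, or 0.358% [0.222, 0.546], against 81 of 4523, or 1.79% [1.42, 2.22], in Marfan, and 19 cells, or 0.377%, in control. These cells held 84.7% and 90.6% of all class II UMIs in the first 2 libraries. The limit of 5 UMIs was set after the counts were seen and marks a range, not a cell type, and 10 and 16 cells lay at 4 or 5 UMIs.

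The class II-rich Marfan cells held SMC transcripts at lower levels than other cells. Their median was 3 Myh11 UMIs per cell against 8 in the rest, and 59 of the 81 held a TDT UMI. The choice of cells required Myh11 and the sort the reporter, so neither is an independent sign of their identity. Acta2 was at 13392 CPM in them and at 25148 CPM in other Marfan cells, and Myh11 at 1182 and 2235 CPM. They also held 58.3% of the Marfan library's C3 UMIs, 41.6% of those of Ly6a, 38.6% of Serpina3n, 34.1% of Lcn2, 28.7% of Ly6e and 17.3% of Ifi27l2a. Lum and Dcn, proteoglycans of fibroblasts and modulated SMCs, were at 1207 and 2694 CPM against 142 and 365 CPM in the rest. Macrophage genes were present in part: C1qa was at 309 CPM in the 81 cells, though in 5 of them, and 7 held 2 or more UMIs of the macrophage list. Without those 7, 74 cells, or 1.64%, remained against 14, or 0.239%, under the Klf4-floxed label. Summed macrophage markers over all cells were 13.7 and 22.4 CPM, against 4460 to 5497 CPM in the lineage-negative Marfan libraries, and 7 of 9 markers were lower under the Klf4-floxed label. The part of doublets in these cells was not tested. Removal of the cells with the top doublet scores gave a difference of -1.34 percentage points, against -1.43 with all cells. The score marked 0 cells at its automatic threshold and had not worked, so that value cannot speak to doublets.

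Every cell with 2 or more class II or macrophage UMIs was then removed. The median log2 ratio of the chemokine, complement and inflammation list was -0.10 without them, and the values of Isg15 and Ly6e were -0.27 and -0.78. C3 moved from -1.76 to -0.66 and C4b from -1.63 to -1.13. Other called members of the list did not move towards 0. Ccl7 moved from -2.28 to -3.69, Ccl2 from -1.62 to -1.90 and Cxcl2 from -1.40 to -2.26, and Cxcl1 stayed at -0.93. Ifi27l2a was at -1.24 and Lcn2 at -3.09 without these cells, so both were still past 1.5-fold. This removal was chosen after the data were seen.

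Among chemokine, complement and inflammation genes 7 of 18 measured members were called lower and 0 higher, against 0.455% and 0.433% of all measured genes. The list's median was -0.37. The median was -0.06 with only the cells that held a TDT UMI. Ccl5, a chemokine outside the list that was picked after its value was seen, was higher, at 10.7 against 5.42 CPM and 0.298 CPM in control (log2 ratio 0.99), in 0.545% and 0.398% of cells. Its log2 ratio passed 1.5-fold in 13 of 15 alternatives, and it was 0.58 without thinning. Lcn2, the iron-binding acute-phase protein lipocalin-2, was at 0.894 CPM against 11.5 CPM in Marfan and 0.0496 CPM in control, with a UMI in 0.239% and 1.53% of cells (log2 ratio -3.68 [-4.41, -3.03]). C3, the central complement component, was at 7.07, 24.0 and 2.83 CPM (log2 ratio -1.76). C4b, another complement component, was at 4.09 against 12.7 CPM and at 13.1 CPM in control. Ccl2 and Ccl7, which draw in monocytes, were at 4.05 and 1.92 CPM against 12.4 and 9.29 CPM. Ccl7 was found in 0.0852% and 0.553% of cells and its log2 ratio of -2.28 was -0.11 after removal of cells with markers of other types. The chemokine Cxcl2 had a log2 ratio of -1.40 and reversed to 0.31 without the Myh11 limit, and Cxcl1 was at 12.2 against 23.3 CPM. Cxcl12, a chemokine found in more cells, stood near 0, at 112 and 106 CPM.

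Of 13 measured cartilage-associated genes 3 were called lower, Spp1 among them, against 0.455% of all measured genes. The list's median was -0.11. Comp, cartilage oligomeric matrix protein, was at 33.8, 75.8 and 56.3 CPM in the library labelled Klf4-floxed, Marfan and control (log2 ratio -1.16 [-1.29, -1.04]). Cytl1, a secreted cytokine-like protein of cartilage, was at 56.2, 107 and 31.5 CPM (log2 ratio -0.93 [-1.03, -0.83]). Sox9, the master factor of chondrocytes, was at 7.45 and 8.51 CPM, and Acan, aggrecan, at 41.9 and 52.3 CPM. Comp and Cytl1 are also markers of valve interstitial cells or chondrocytes, and the 5 markers on that list summed to 92.1 CPM against 198 CPM, with all 5 lower under the Klf4-floxed label. Chad, which with Prg4 marks those cells here, was at 0.170 and 2.27 CPM. It was found in 0.0681% of cells under the Klf4-floxed label and 0.0663% of Marfan cells, so its share was not lower. Col2a1, another of the 5, was found in 0.0852% and 0.133% of cells. The differences of Chad and Col2a1 in CPM thus rest on very few cells. Prg4 was at 1.70 CPM under the Klf4-floxed label and 12.6 CPM in Marfan, in 0.375% and 1.59% of cells. Cells with 2 or more UMIs of the 5 markers made up 4.72% and 7.96%. Without cells holding Chad or Prg4 the log2 ratios of Comp and Cytl1 were -1.01 and -0.82, and with only cells holding a TDT UMI they were -0.66 and -1.02.

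The metallothioneins Mt1 and Mt2, which bind zinc and copper and are induced by metals and glucocorticoids, were lower, and Mt1 was the most abundant of the 42 lower genes. Mt1 was at 506 CPM in the library labelled Klf4-floxed, 805 CPM in Marfan and 926 CPM in control (log2 ratio -0.67 [-0.71, -0.64]), and a UMI was found in 66.3%, 74.1% and 83.2% of cells. Mt2 was at 77.9, 141 and 153 CPM (log2 ratio -0.86 [-0.94, -0.77]). Across the ranges of the modulated score, from low to high, the log2 ratios of Mt1 were -0.61, -0.52 and -0.77 and those of Mt2 were -0.69, -0.64 and -1.01, so Mt1 was under 1.5-fold in the middle range. The lineage-negative libraries showed the same direction, with log2 ratios of -0.95 and -1.72. The other 9 measured genes of metal handling were under 1.5-fold, and so were the other 15 measured glucocorticoid-responsive genes, with a list median of -0.10.

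Chaperones of the unfolded protein response, which refold proteins in the endoplasmic reticulum, had small ratios. Every one of 18 measured members had a log2 ratio below 0, and the median was -0.20, against -0.00 over all measured genes. Only 1 was called lower, where 0.455% of all measured genes were. That was Sdf2l1, at 17.3 against 26.3 CPM and 8.13 CPM in control (log2 ratio -0.60 [-0.79, -0.40]), which passed 1.5-fold in 7 of 15 alternatives. Hspa5, the chaperone BiP, was at 690, 851 and 521 CPM in the library labelled Klf4-floxed, Marfan and control. In lineage-negative cells the list's median was -0.19.

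Immediate early genes, transcribed within minutes of a stimulus and also during tissue dissociation, were higher in part. Of 22 measured members 2 were called higher and 0 lower, against 0.433% and 0.455% of all measured genes. The list's median was 0.10. Atf3, a stress-induced factor of the ATF family, was at 95.4 CPM against 58.3 CPM in Marfan and 45.1 CPM in control (log2 ratio 0.71 [0.60, 0.82]), in 17.9%, 11.2% and 10.6% of cells. Fosb, a member of the AP-1 complex, was at 30.75, 19.01 and 13.1 CPM (log2 ratio 0.69 [0.51, 0.88]). From the low to the high range of the modulated score, the log2 ratios of Atf3 were 1.19, 0.46 and 0.34. Those of Fosb were 0.95, 0.84 and 0.43. Atf3 was thus past 1.5-fold in the low range alone, and Fosb was under it in the high range. Fos was at 485 against 360 CPM and Jun at 281 against 239 CPM, both under 1.5-fold, while Junb and Btg2 had log2 ratios of -0.24 and -0.20. The heat shock gene Hspa1a, another dissociation-sensitive transcript, was at 504 against 338 CPM (log2 ratio 0.58 [0.53, 0.62]), just under 1.5-fold. Digestion was the same for all groups per the labels, and its part in these values was not tested.

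Clock genes differed in part. Of 17 measured circadian genes 2 were called higher and 1 lower, against 0.433% and 0.455% of all measured genes. Dbp, a clock-controlled transcription factor, was at 50.9 CPM against 29.1 CPM in Marfan and 24.4 CPM in control (log2 ratio 0.81 [0.66, 0.96]). Per3 was at 10.2 against 6.02 CPM (log2 ratio 0.76). Cry1, a repressor of the core clock, was at 5.54 against 9.29 CPM (log2 ratio -0.75 [-1.09, -0.41]). Nr1d2 and Nr1d1, the REV-ERB receptors, had log2 ratios of 0.54 and 0.35. The lineage-negative libraries of the same animals pointed the same way, with log2 ratios of 1.28 for Dbp, 0.95 for Nr1d1, 0.84 for Nr1d2, 0.78 for Per3 and -0.45 for Cry1. The hour of tissue collection was not stated, and group and hour cannot be told apart.

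Further genes with large ratios came from other lists or from none. Ahsg, the plasma glycoprotein fetuin-A, was at 40.7 CPM against 20.8 CPM in Marfan and 3.57 CPM in control (log2 ratio 0.97 [0.80, 1.14]), and it passed 1.5-fold in all 15 alternatives. Tcap, the titin-binding protein telethonin, was at 211 CPM against 132 CPM in Marfan and 214 CPM in control (log2 ratio 0.67 [0.60, 0.74]). Gpm6a, a neuronal membrane glycoprotein, was at 20.6 against 13.6 CPM. Hsd11b1, which regenerates active glucocorticoid and was picked after its value was seen, was at 14.01, 6.52 and 2.93 CPM. Lamb1, a laminin chain, was the called member of 10 measured basement membrane genes, at 6.69 against 3.65 CPM. On the lower side Osmr, the receptor of oncostatin M, was at 28.2, 43.9 and 18.6 CPM (log2 ratio -0.64 [-0.79, -0.49]), and Ndnf, a secreted neuron-derived factor, at 17.4 against 27.6 CPM. Each passed 1.5-fold in 9 of 15 alternatives. Adra1b, an adrenergic receptor, was the called member of 16 vasoactive genes, at 4.05 against 6.08 CPM, and its log2 ratio of -0.59 was -0.25 with another thinning seed. By share of cells, 3 genes differed by 10 percentage points or more: Klf4 and the splicing factor Srsf5 (55.9% against 45.8%) were in more cells, and TDT in fewer. These were 0.0216% and 0.0108% of measured genes.

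**Figure D4:**
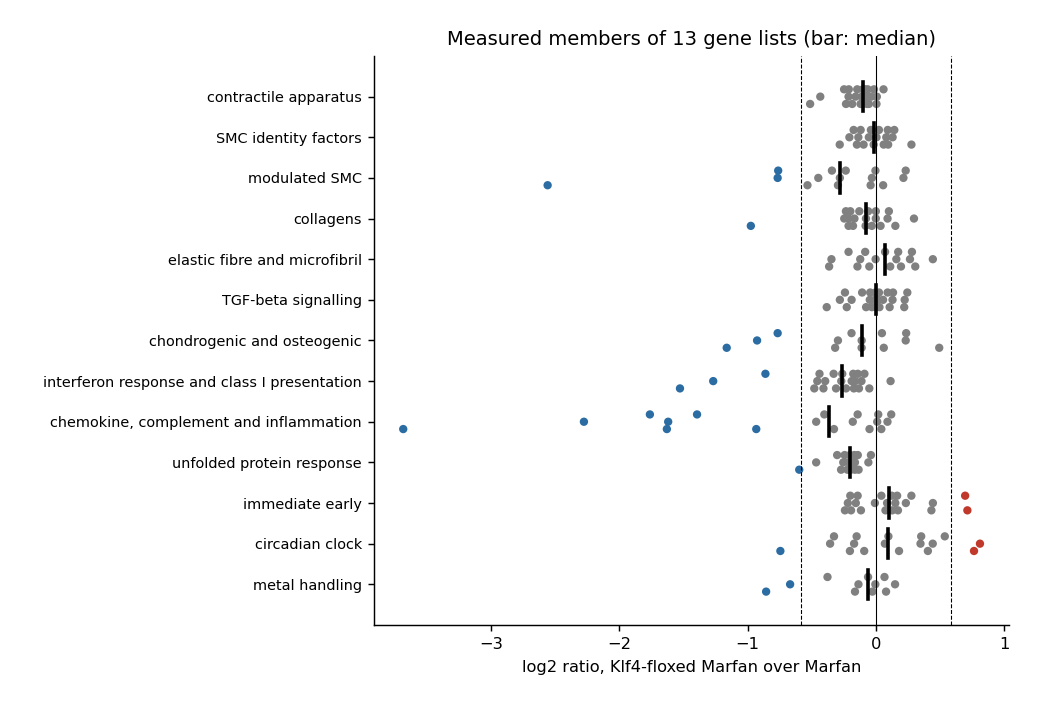
Log2 ratios of the measured members of 13 gene lists, 1 point per gene, with the list median as a black bar and 1.5-fold as dashed lines. Contractile and TGF-beta genes sit near 0, the inflammatory and interferon lists reach to the left through a few genes, and Atf3, Fosb, Dbp and Per3 lie past the right line.

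Cells that held a Klf4 UMI were set against those that did not within each library. The 1538 Klf4-positive and 4332 Klf4-negative cells of the library labelled Klf4-floxed, and the 588 and 3935 of Marfan, were compared over 5399 genes with a mean of at least 20 CPM. These are cells of 1 library and not replicates, and a cell without a UMI may still express Klf4. In both libraries 19 genes were 1.5-fold higher in the positive cells and 3 lower. Taken singly, the libraries gave 25 and 108 higher genes and 11 and 27 lower ones. The positive group of Marfan had fewer cells, 588 against 1538, and so a larger counting error, and the part of this in the counts was not tested. Fosb was at 60.1 against 20.3 CPM under the Klf4-floxed label and 57.8 against 13.2 CPM in Marfan. Klf2 was at 212 against 95.7 CPM and 259 against 120 CPM, Atf3 at 156 against 73.8 CPM and 129 against 47.7 CPM, and Spp1 at 150 against 69.0 CPM and 258 against 138 CPM. Immediate early genes had median log2 ratios of 0.46 and 0.82 and modulated SMC genes of 0.46 and 0.81, against 0.01 and 0.03 over all genes. Contractile genes had medians of -0.10 and -0.21. Other lists parted between the libraries: small leucine-rich proteoglycans had medians of -0.08 and 0.40, the chemokine and complement list of -0.12 and 0.44, and the interferon list of 0.02 and 0.43. Dcn was at 388 against 330 CPM under the Klf4-floxed label and at 952 against 325 CPM in Marfan. The median raw depth of positive and negative cells was 13922 and 13297 UMIs in the first library and 12376 and 12636 in the second.

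The lineage-negative libraries, captured apart from the same pooled animals, were read for the same genes. There 113 genes (1.09%) were 1.5-fold higher and 265 (2.55%) lower under the Klf4-floxed label. Of the 42 genes lower in SMCs 36 had a ratio below 0 in the lineage-negative cells and 13 were 1.5-fold lower. Of the 40 higher genes 28 were above 0 and 8 were 1.5-fold higher. Unlike the 1.09% and 2.55%, these counts set no CPM limit in the lineage-negative cells. The limit of 5 CPM was reached there by 37 of the 42 and 35 of the 40. Over all measured genes 47.1% were below 0 in that comparison. Spp1 had a log2 ratio of -1.80 there, Mt2 of -1.72, Ccl7 of -1.29 and Lcn2 of -1.20. Comp, Cytl1, Pcolce2, Ly6a and Ifi27l2a were between -0.24 and -0.04 there, while in SMCs they were -0.93 or lower. Among lineage-negative cells Ly6a was at 637 and 745 CPM, far above its SMC levels. The part of RNA or cells of that fraction in the SMC values was not tested. Genes seen in under 5% of cells of the higher library were 28 of the 42 lower and 29 of the 40 higher genes. Where their positive cells held about 1 UMI each, fewer positive cells and less transcript per cell could not be told apart. H2-Ab1 had 4.29 UMIs per positive cell under the Klf4-floxed label and 4.13 in Marfan, in 0.818% and 3.14% of cells. C4b had 2.18 and 2.16, in 0.75% and 2.34%. Their shares of cells thus differed more than their UMIs per positive cell. Cxcl2 went the other way, with 5.77 and 12.7 in 0.221% and 0.265% of cells. Prg4 was lower in both, with 1.82 and 3.17 in 0.375% and 1.59%. How many genes followed each pattern was not counted.

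**Figure D5:**
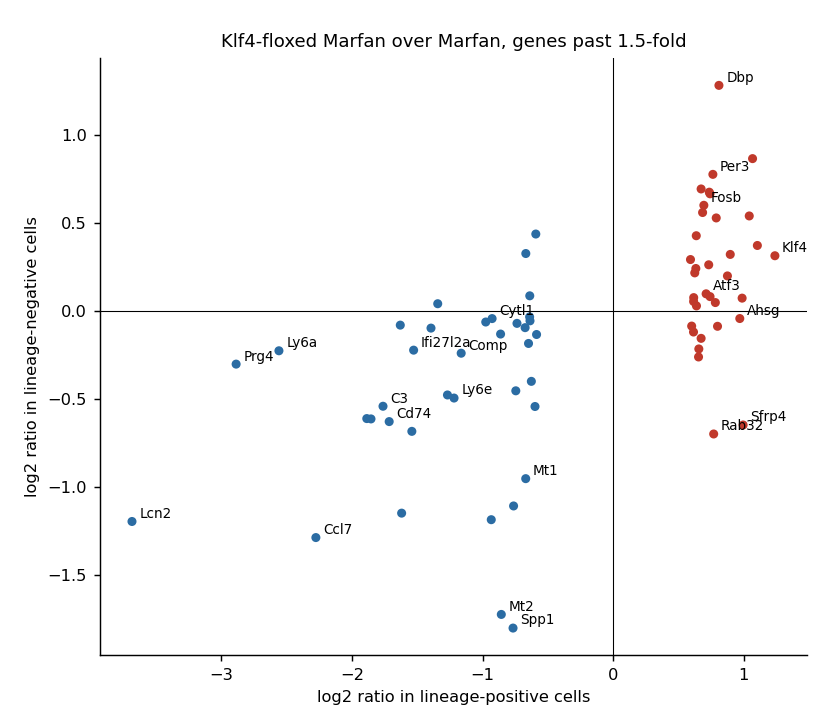
Log2 ratio of Klf4-floxed label over Marfan in lineage-positive (x axis) and lineage-negative cells (y axis) for the 72 called genes measured in both. Dbp, Per3 and Fosb lie high in both fractions and Mt2, Spp1, Ccl7 and Lcn2 low in both, while Rab32 and Sfrp4 lie on opposite sides.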

How the data were processed

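Single-cell libraries were analysed from the 6 matrices of the series. The deposited values are raw counts of UMIs per gene and barcode, made by the authors with Cell Ranger 6.1.2 per the file headers, on mm10 per the submitters' processing notes. Annotation release and barcode calling were not stated. Of 55402 feature identifiers 55141 were found in GENCODE M21. Cells were chosen and thinned (seed 1) as the report states, summed per library, and scaled to CPM over all UMIs, with numpy 2.4.6, scipy 1.17.1 and pandas 2.3.3. Intervals are exact Poisson for CPM, conditional binomial for ratios and Clopper-Pearson for shares. With 1 library per group no test was run, and the computation was tested on simulated data. Kept cells held 23480000 and 18092000 thinned UMIs in all, which gives the precision shown in brackets.

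Named genes were the 15 largest and 15 smallest ratios with at least 20 CPM and a UMI in at least 5% of cells in the higher library, the 6 largest changes of share at each end, up to 4 members per list of 28 lists, and a fixed set. Acan, B2m, Bst2, Btg2, C1qa, Ccl5, Cxcl12, H2-D1, H2-K1, Ifit1, Igfbp2, Jun, Junb, Lum, Nr1d1, Prg4, Rab32, Serpina3n, Sfrp4, Sox9 and those marked in the report were picked after their values were seen. Members and lists were chosen with earlier results of these data known. Alternatives changed depth, thinning, mitochondrial and Myh11 limits, doublets, cells with other markers, scaling, seed and the CPM minimum. Scrublet (scanpy 1.11.5) marked 0 cells at its automatic threshold, which means it had not worked, so doublets were kept and removal of the top scores was an alternative. Sequences are from RefSeq.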

Additional observations from a re-analysis of the deposited data

Results flagged for a closer look

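Rab32 and Sfrp4 were flagged because their ratios pointed in opposite directions in the 2 sorted fractions, each past 1.5-fold, and the difference was not tested. Rab32, a small GTPase, had a log2 ratio of 0.77 in SMC lineage-positive cells (6.69 against 3.92 CPM) and of -0.70 in lineage-negative cells. Sfrp4, a secreted Wnt antagonist, had a log2 ratio of 0.99 in lineage-positive cells (10.3 against 5.20 CPM) and of -0.65 in lineage-negative cells. Without thinning Rab32 fell under 1.5-fold, with a log2 ratio of 0.29, and Sfrp4 was at 1.03.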

How the results depend on the processing

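No paired analysis was possible because each group was 1 library with no replicate number. Limits were few cells behind scarce genes, 1 library per group, and a reporter level that differed between the libraries. The Klf4 log2 ratio lay between 1.19 and 1.40 over 15 alternatives. It was 1.36 without thinning, 1.36 without the Myh11 limit and 1.40 with at least 5 Myh11 UMIs. In the high range of the modulated score it was 1.26 without thinning, 0.85 at 2000 UMIs and 0.34 with cells of 4000 to 8000 UMIs. The difference in share of Klf4-positive cells was 24.7 points without thinning, 8.52 at 2000 UMIs, 20.04 at 8000 UMIs and 14.7 with a mitochondrial limit of 5%. The class II-rich share differed by -1.99 points without thinning, -0.75 at 2000 UMIs, -2.12 with cells of 4000 to 8000 UMIs and -1.01 with at least 5 Myh11 UMIs. The limits of 15 score UMIs and 5 class II UMIs were not scaled with depth. The high range and the class II-rich group therefore hold other cells without thinning and at 2000 UMIs, and those values are not like for like. Higher genes numbered 26 without thinning, 68 at 2000 UMIs, 337 with cells of 4000 to 8000 UMIs (803 and 883 cells, hence fewer counts), 184 at a mean of 1 CPM and 6 at 20 CPM. Lower genes numbered 70 at 2000 UMIs, 272 with cells of 4000 to 8000 UMIs, 185 at 1 CPM and 14 at 20 CPM. Genes with a share difference of 10 points numbered 5 without thinning, 5 at 8000 UMIs and 9 with cells of 4000 to 8000 UMIs. Genes higher in Klf4-positive cells of both libraries numbered 36 without thinning, 45 with cells of 4000 to 8000 UMIs, 32 at a mitochondrial limit of 5%, 37 without the Myh11 limit, 30 with doublets removed and 29 with another seed. Among list medians, oxidative phosphorylation was -0.0066 at 2000 UMIs and -0.0012 with cells of 4000 to 8000 UMIs, where Notch was 0.0439 and small leucine-rich proteoglycans 0.23. The last list was 0.14 without Chad or Prg4 cells. The unfolded protein response median was -0.16 at a mitochondrial limit of 5%, Ly6 family -0.98 with at least 5 Myh11 UMIs, and interferon -0.0924 without class II or macrophage cells. Cxcl2 reversed to 0.31 without the Myh11 limit. Of the 34 called genes taken by the naming rule 33 kept their sign in every alternative and 17 stayed past 1.5-fold in every one. Over all called genes 33 of 40 higher and 35 of 42 lower genes kept their sign in all 15 alternatives. Ccl5, Prg4 and C1qa, named outside that rule, were among those that did not. The alternatives that required a TDT UMI or removed Chad, Prg4, class II or macrophage cells were chosen after seeing the data. The cause of these shifts was not tested.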
